A study of Homo sapiens with 4 samples.

Results

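The genes of HLA class I antigen presentation were followed in TOV21G, an established human ovarian clear cell carcinoma line, under arsenic trioxide (As2O3), a thiol-reactive drug, and GSK458, an inhibitor of the kinases PI3K and mTOR. The 9 genes are the rows of the deposited expression table with the symbols HLA-B, HLA-C, HLA-E, B2M, TAP1, TAP2, TAPBP, ERAP1 and NLRC5, out of 26255 symbols, and they were chosen by symbol. Poly(A) RNA was sequenced from cells given As2O3 at 1 µM for 48 h, cells given GSK458 at 0.1 µM for 48 h, cells given both drugs at these doses for 48 h, and control cells given no drug (time not given in the sources used here). Each group is 1 library of 1 cell line, so no value below has a replicate error, no test was run, and each difference describes these 4 libraries.

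Class I molecules display peptides from inside the cell to CD8 T cells and natural killer cells. A polymorphic heavy chain (HLA-B or HLA-C) or the less variable HLA-E pairs with the light chain beta-2 microglobulin, encoded by B2M. The TAP1-TAP2 transporter carries peptides from the cytosol into the endoplasmic reticulum, tapasin (TAPBP) bridges the transporter to the empty class I molecule, and the aminopeptidase ERAP1 trims peptides to fit. NLRC5 is the class I transactivator, which acts on the promoters of heavy chain, B2M and TAP1 genes, and interferon gamma raises most of the pathway. Many tumours lower it, which hides them from T cells.

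In the libraries with GSK458, the heavy chain genes and the transporter gene TAP2 stood at opposite ends of the 9 genes in their difference from the control. HLA-B, HLA-C and HLA-E were higher in each treated library than in the control, by 1.16-fold to 1.66-fold. TAP2 was at 0.536 times the control level with GSK458 and at 0.604 times with both drugs, and was 1.20-fold higher with As2O3. In bulk RNA, fewer cells with a transcript and less of it per cell cannot be told apart. B2M, TAP1 and TAPBP stood between 0.770 and 1.29 times the control, and ERAP1 at 0.664 times with As2O3 alone. No member reached a 2-fold difference in any of 5 comparisons, each drug and the combination against the control and the combination against each drug.

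Promoters are shown for a first and a second set of members, chosen by different rules and not as sides of the contrast above. They are shown since interferon regulatory factors, NF-Y and NF-kB are known to act on promoters of the pathway. RefSeq windows (build GRCh38.p14, 250 bases before to 50 after the start) were at hand for 7 of the 9 genes, with none for HLA-E and NLRC5. The 200 bases before the start are printed 5′ to 3′ on the gene's strand, and they are the reference genome's and not the line's own. Capitals mark matches, on either strand, to the interferon-stimulated response element ISRE (GAAANNGAAA), the gamma-activated site GAS (TTCNNNGAA), the NF-Y box CCAAT, the cyclic AMP element half-site TGACG and the NF-kB consensus. The first set holds genes with their lowest value in the control, HLA-B (chr6:31357180-31357379, minus strand), HLA-C (chr6:31272093-31272292, minus strand) and B2M (chr15:44711317-44711516, plus strand).
HLA-B: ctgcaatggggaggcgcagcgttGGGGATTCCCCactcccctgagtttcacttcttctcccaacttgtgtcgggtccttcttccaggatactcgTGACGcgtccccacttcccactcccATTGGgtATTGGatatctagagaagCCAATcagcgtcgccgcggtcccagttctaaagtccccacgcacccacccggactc
HLA-C: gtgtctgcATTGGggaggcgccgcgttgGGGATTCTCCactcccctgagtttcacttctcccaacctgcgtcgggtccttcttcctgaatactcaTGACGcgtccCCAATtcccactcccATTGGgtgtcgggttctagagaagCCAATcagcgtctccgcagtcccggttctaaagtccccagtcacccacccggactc
B2M: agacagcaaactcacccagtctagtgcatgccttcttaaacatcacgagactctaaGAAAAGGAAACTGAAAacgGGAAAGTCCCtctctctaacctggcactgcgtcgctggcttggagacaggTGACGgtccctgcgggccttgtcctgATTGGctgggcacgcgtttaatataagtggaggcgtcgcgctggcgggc

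The second set holds genes that were lower in both libraries with GSK458 than in both without it, TAP1 (chr6:32853705-32853904, minus strand), TAP2 (chr6:32838740-32838939, minus strand) and TAPBP (chr6:33314079-33314278, minus strand). RefSeq gives 2 windows for TAP1, and the one farther from TAP2 is shown. The window not shown held a GAS match at -189 and no match to the other patterns.
TAP1: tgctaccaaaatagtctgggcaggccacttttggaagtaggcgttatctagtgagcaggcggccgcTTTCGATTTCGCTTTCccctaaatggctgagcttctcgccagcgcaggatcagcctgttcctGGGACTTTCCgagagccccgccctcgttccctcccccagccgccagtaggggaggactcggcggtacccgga
TAP2: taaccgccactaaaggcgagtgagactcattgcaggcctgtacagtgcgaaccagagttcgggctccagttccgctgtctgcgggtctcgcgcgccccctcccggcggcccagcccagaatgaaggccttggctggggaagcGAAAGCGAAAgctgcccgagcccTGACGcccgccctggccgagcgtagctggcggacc
TAPBP: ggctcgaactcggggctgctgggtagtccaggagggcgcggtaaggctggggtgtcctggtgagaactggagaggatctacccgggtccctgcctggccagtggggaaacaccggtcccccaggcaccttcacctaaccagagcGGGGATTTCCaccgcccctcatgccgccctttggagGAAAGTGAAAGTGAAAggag

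The HLA-B and HLA-C stretches were 91.3% identical over 196 aligned bases. Both carried TGACG, at positions -106 and -105 counted from -1 at the base before the start, and an NF-kB match farther upstream. In HLA-B a pair of inverted CCAAT boxes and then a forward one followed TGACG, while in HLA-C a forward box, an inverted one and another forward one did. B2M carried TGACG at -75, an inverted CCAAT box, an NF-kB match and 2 overlapping ISRE matches. TAP2 carried an ISRE match at -58 and TGACG at -35, with no CCAAT or NF-kB match in the window. The TAP1 window shown and the TAPBP window each had overlapping ISRE matches and an NF-kB match. Of 35116 windows of this length, 3.57% held the ISRE, 7.66% the GAS, 34.6% CCAAT, 24.6% TGACG and 11.3% the NF-kB consensus. HLA-B and HLA-C had no match to the ISRE letters given. The patterns were matched exactly, so variant elements go unmarked, and a missing mark does not show that an element is absent. These matches are descriptions of letters and not of bound sites.

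FPKM is the number of fragments scaled to transcript length and to the library size that the authors' processing used. Differences are on the log2(FPKM + 1) scale unless a fold is given, with a pseudocount of 1 FPKM. They are read among the 12260 genes whose mean over the 4 libraries was 1 FPKM or more, which 8 of the 9 members passed. Sums of FPKM were 577409 with As2O3, 588892 with GSK458, 566797 with both and 543975 in the control. Judged from low values, sequencing depth relative to the control was 96.3% for As2O3, 109% for GSK458 and 85.8% for both, and the absolute depth is unknown. Of 14 markers of clear cell carcinoma, 12 reached 1 FPKM in some library, and the other 2 were KRT19 and IGFBP1. The secreted markers SPP1, TFPI2 and GPX3 were the furthest above the control, with SPP1 at 1308, 761, 1947 and 571 FPKM with As2O3, GSK458, both and in the control. Of 18 immune markers, 16 were under 1 FPKM in every library and 6, PTPRC and CD3E among them, were listed at 0. The summed immune markers were 6.14, 3.91, 5.06 and 2.87 FPKM with As2O3, GSK458, both and in the control, and the markers that reached 1 FPKM were CD68, a lysosomal protein of macrophages and other cells, and CD8A, a T cell co-receptor chain. CD68 was the higher of them in the libraries with As2O3, and CD8A in those without. All 9 endothelial markers were under 1 FPKM. Of 10 fibroblast markers 7 were under 1 FPKM in every library, and their sums were 28.1, 48.9, 42.0 and 35.1 FPKM in the same order, with the smooth muscle actin ACTA2 highest. The part of these markers in the class I values was not tested.

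HLA-B, a classical heavy chain, stood at 49.7 FPKM with As2O3, 65.6 with GSK458, 62.1 with both drugs and 42.9 in the control. Both libraries with GSK458 were above both without it, as for 27.4% of all tested genes. Against the control the log2 differences were 0.21 with As2O3, 0.60 with GSK458 and 0.52 with both.

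HLA-C, the classical heavy chain best known as a ligand of natural killer cell receptors, stood at 87.1 FPKM with As2O3, 80.8 with GSK458, 92.3 with both and 59.1 in the control. The treated libraries lay close together and the control lay apart below them. The log2 differences from the control were 0.55, 0.45 and 0.64 for As2O3, GSK458 and both.

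HLA-E, which presents leader peptides of other class I chains to natural killer cells, stood at 117 FPKM with As2O3, 129.9 with GSK458, 132 with both and 79.2 in the control. The log2 differences from the control were 0.56, 0.71 and 0.73, larger than those of 92.0%, 94.3% and 93.4% of all tested genes. HLA-E was the heavy chain gene with the widest difference in each of the 3 comparisons with the control.

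B2M, the light chain shared by all these molecules, was the most abundant member, at 512 FPKM with As2O3, 418 with GSK458, 418 with both and 397 in the control. It ranked between 157 and 187 among all genes of the table in each library. The As2O3 library was high and the others lay within 1.06-fold of each other. Per unit of HLA-B, HLA-C and HLA-E together, B2M stood at 2.01 with As2O3, 1.51 with GSK458, 1.46 with both and 2.19 in the control. This ratio is taken within a library, so no scaling of whole libraries can alter it, and it was lower in the libraries with GSK458 than in those without.

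Across the 4 libraries the control was the lowest for HLA-B, HLA-C, HLA-E and B2M, 4 of the 8 members that passed, against 28.3% of all tested genes. The 3 comparisons with the control share that library, so a low value in it raises all of them alike. For each heavy chain gene and each drug, the difference was smaller in the pair that does not use the control than in the same drug's pair that does. By arithmetic, this holds for As2O3 exactly when it holds for GSK458, so the drugs do not give separate evidence. It is also the same statement as the departure from additivity below 0 that is given further on for these genes. The combination minus As2O3 gave 0.31 for HLA-B, 0.08 for HLA-C and 0.16 for HLA-E. The combination minus GSK458 gave -0.08, 0.19 and 0.02 for the same genes. What part the single control library had in the higher heavy chain values cannot be told apart from a response to both drugs.

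**Figure D1:**
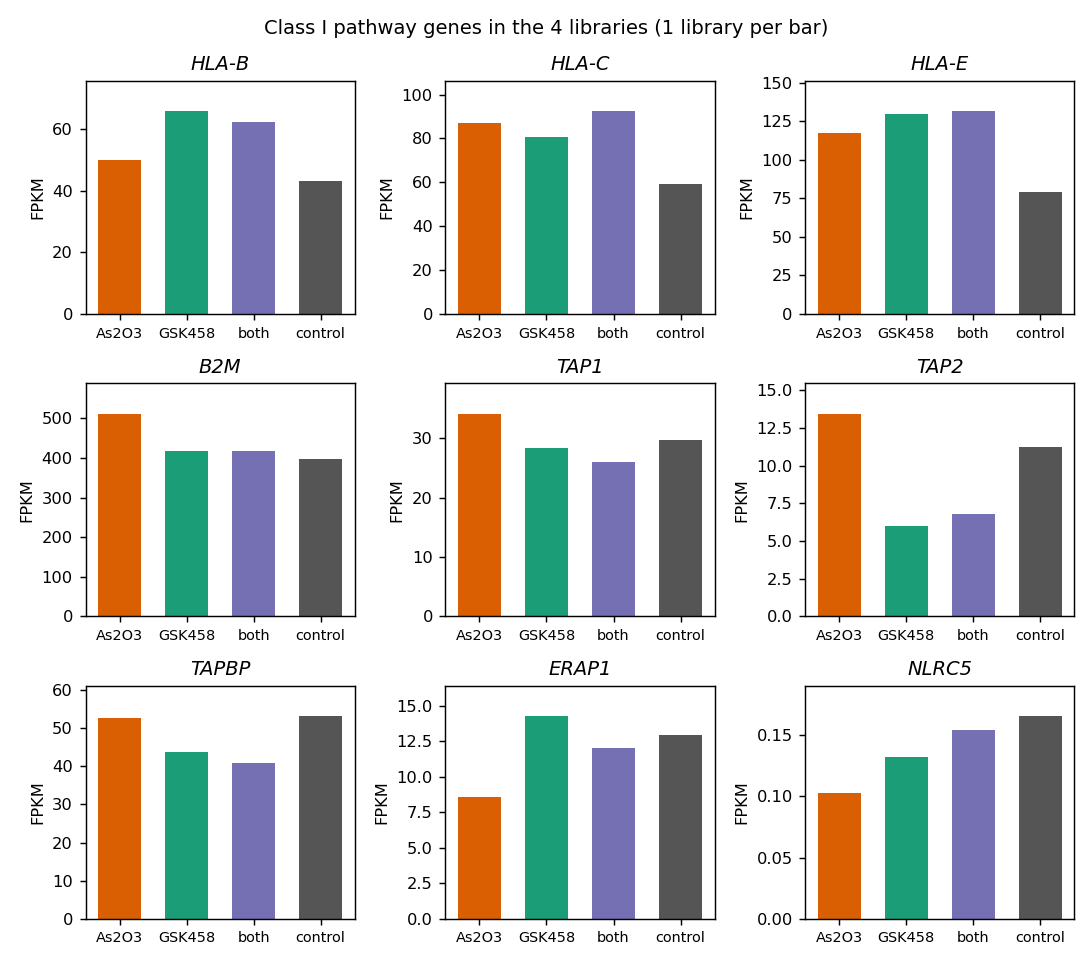
Expression of the 9 class I pathway genes in FPKM (vertical axes, each starting at 0) in the libraries with As2O3, GSK458, both drugs and the control, 1 library per bar and no error bars. HLA-B, HLA-C and HLA-E are lowest in the control, TAP2 is at 6.02 and 6.79 FPKM in the libraries with GSK458, and NLRC5 stays below 0.17 FPKM.

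TAP2, a subunit of the peptide transporter, stood at 13.4 FPKM with As2O3, 6.02 with GSK458, 6.79 with both and 11.2 in the control. Both libraries with GSK458 were below both without it, as for 30.6% of all tested genes. The difference was -0.80 for GSK458 minus control and -0.89 for both minus As2O3, which share no library. In both of these pairs it was at least 1.5-fold lower, as were 6.01% of all tested genes. Of all tested genes, 5.88% were lower still in the first pair and 5.34% in the second. TAP2 was the lowest of the 8 members in each of these pairs, so these shares overstate how unusual its place is. With As2O3 the difference was 0.24 without GSK458 and 0.15 in its presence.

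TAP1, the partner subunit, stood at 34.2 FPKM with As2O3, 28.4 with GSK458, 26.0 with both and 29.8 in the control. Its GSK458 differences were -0.07 without As2O3 and -0.38 with it. The ratio of TAP1 to TAP2 was 2.54 with As2O3, 4.71 with GSK458, 3.83 with both and 2.65 in the control. The ratio was therefore higher in each library with GSK458 than in either library without it.

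TAPBP, the chaperone tapasin, stood at 52.6 FPKM with As2O3, 43.8 with GSK458, 40.9 with both and 53.1 in the control. It was lower in both libraries with GSK458 than in both without, as were 30.6% of all tested genes. The GSK458 differences were -0.27 without As2O3 and -0.36 with it. The heavy chain sum of HLA-B, HLA-C and HLA-E was 254 FPKM with As2O3, 276 with GSK458, 286 with both and 181 in the control. Divided by TAPBP it gave 4.83, 6.31, 6.99 and 3.41 in that order, and divided by TAP2 18.9, 45.9, 42.1 and 16.1.

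ERAP1, the trimming aminopeptidase, stood at 8.58 FPKM with As2O3, 14.3 with GSK458, 12.0 with both and 12.9 in the control. The As2O3 library was lower than the others, with a difference of -0.54 from the control that left 7.67% of all tested genes lower still. In the presence of GSK458 the As2O3 difference was -0.23.

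NLRC5, the transactivator, stood at 0.103 FPKM with As2O3, 0.132 with GSK458, 0.154 with both and 0.165 in the control. It failed the filter of 1 FPKM, ranked from 14169 to 14653 among all genes, and at this level a difference between the libraries cannot be read.

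With As2O3 against the control, 6 of the 8 members were higher and 2 lower by any amount, where 51.2% and 48.6% of all genes were, with a median of 0.22 against 0.01 over all genes. None was at least 2-fold apart, where 2.07% of all genes were higher and 1.41% lower by that much. With GSK458, 5 were higher and 3 lower, where 49.4% and 50.5% of all genes were, with a median of 0.10 against -0.01. None was 2-fold apart, against 2.35% of all genes higher and 3.87% lower. With both drugs, 4 were higher and 4 lower, where 48.8% and 51.1% of all genes were, with a median of -0.01 against -0.01. None was 2-fold apart, against 3.25% of all genes higher and 4.31% lower. The combination against As2O3 had a median of -0.10 over the members and -0.02 over all genes, and again none reached 2-fold, against 2.28% higher and 4.27% lower. The combination against GSK458 had medians of -0.04 and 0.00, with none at 2-fold, against 0.644% higher and 0.318% lower. A 2-fold difference is uncommon in every comparison, so 0 of 8 is close to the background.

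At a threshold of 1.5-fold, HLA-B and HLA-E were higher and TAP2 lower with GSK458, against 8.61% of all genes higher and 10.3% lower. With both drugs HLA-C and HLA-E were higher and TAP2 lower, against 9.93% and 11.7%. In the combination against As2O3 only TAP2 passed, on the lower side, against 11.6% of all genes lower and 9.46% higher. None of the 8 members passed with As2O3 against the control, where 7.43% of all genes were higher and 6.45% lower, or in the combination against GSK458, where 2.19% were higher and 1.53% lower.

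**Figure D2:**
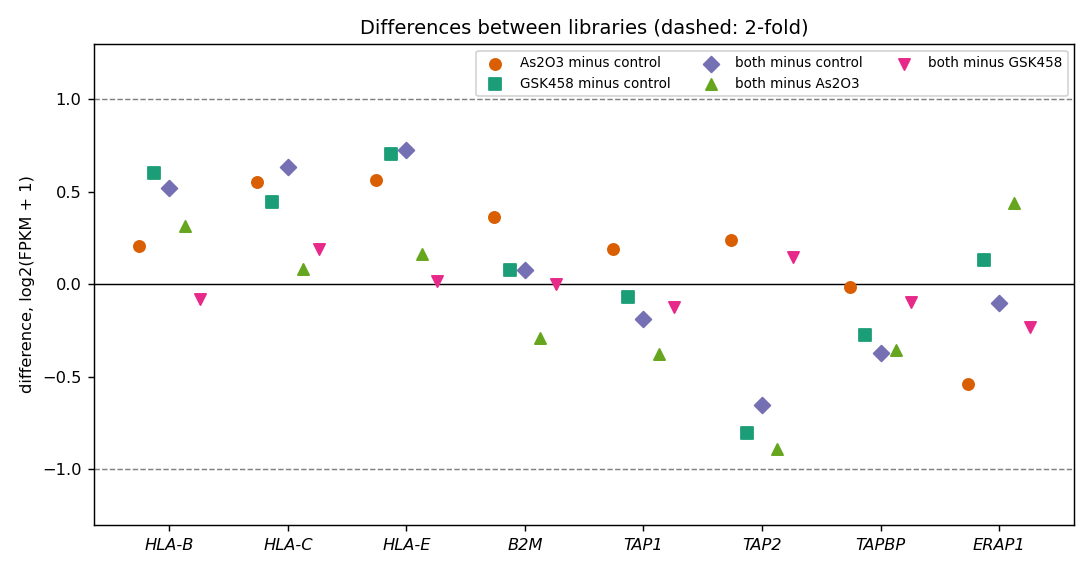
Difference on the log2(FPKM + 1) scale (vertical axis) for the 8 members that passed the filter in 5 comparisons, 1 point per comparison, with the dashed lines at 2-fold. The points of HLA-B, HLA-C and HLA-E against the control lie between 0.21 and 0.73, and those of TAP2 with GSK458 between -0.65 and -0.89.

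Both libraries with GSK458 were above both without it for HLA-B and HLA-E and below for TAP1, TAP2 and TAPBP. Among all genes 27.4% lay above and 30.6% below in this way, so 2 and 3 of 8 members are close to the background. Both libraries with As2O3 were above both without it for HLA-C and B2M, against 13.3% of all genes, and below for ERAP1, against 13.1%. The members spread by a median of 0.62 between their highest and lowest library, against 0.50 for all tested genes. TAP2 spread widest, by 1.04, and B2M least, by 0.37. A spread of at least 1 was found for 14.0% of all genes.

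**Figure D3:**
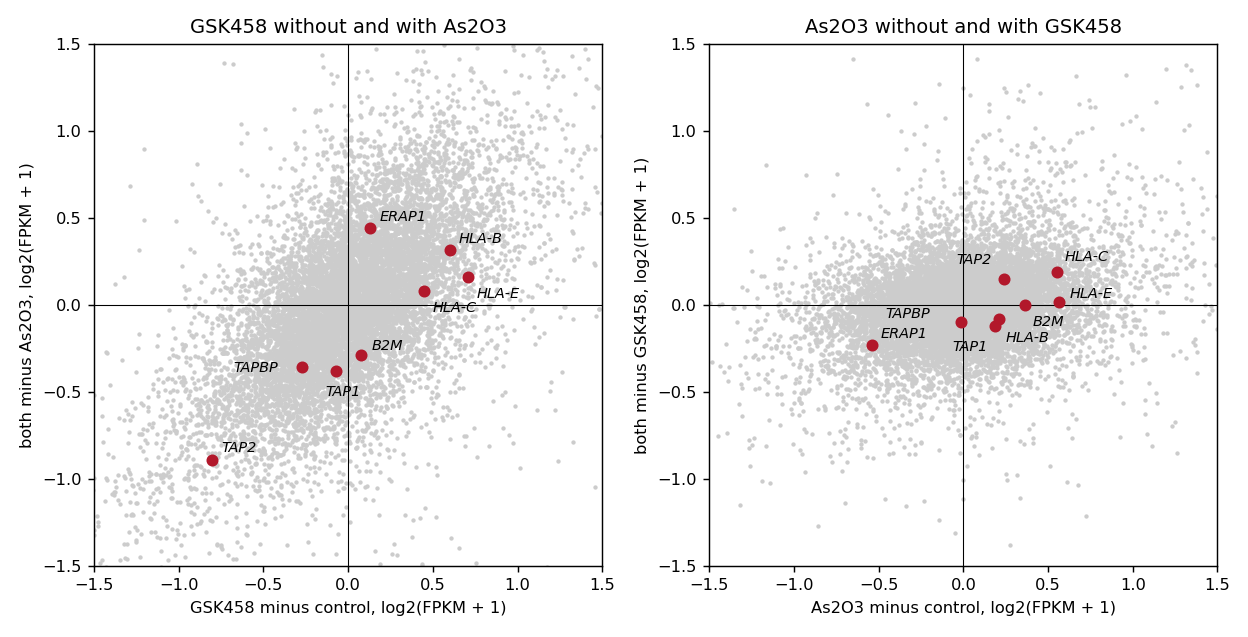
Differences of each drug without the other (horizontal axis) and with it (vertical axis), both on the log2(FPKM + 1) scale, from pairs that share no library; grey points are all tested genes within 1.5 of 0 and red points are the 8 members. TAP2 lies at -0.80 and -0.89 for GSK458, while HLA-E lies at 0.56 and 0.02 for As2O3.

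Since synergy is the question of the series, the combination was set against the sum of the single differences. The departure from this sum was below 0 for 7 of the 8 members, against 50.4% of all genes, with a median of -0.30 against 0.00 over all genes. It was -0.54 for HLA-E, below that of all but 8.69% of genes, and -0.37, -0.36, -0.31 and -0.29 for B2M, HLA-C, TAP1 and HLA-B. ERAP1 was above 0 at 0.31, and TAP2 and TAPBP lay at -0.09 and -0.08. The departure counts the control with a plus sign, so a gene that is low in the control is also low here.

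The members share sequence with other genes to unequal degrees. Of the 31-base stretches in their GENCODE v29 coding transcripts, 37.6% of those of HLA-B, 33.0% of TAP2, 19.3% of HLA-C, 16.3% of TAP1, 13.03% of HLA-E, 12.0% of TAPBP and 5.92% of ERAP1 also occur in a transcript of another gene, on either strand. For B2M and NLRC5 none did. Values of the heavy chains are uncertain for this reason, and also because HLA-B and HLA-C alleles differ from the reference to which reads are mapped. Most shared stretches of TAP1 occur in PSMB8-AS1, which is annotated as antisense RNA, and strand handling in the counting bears on them. Those of TAP2 all occur in 1 further transcript model, so the TAP2 level may depend on whether the authors' annotation held that model and how its reads were counted.

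The other steps of the pathway were read from gene lists. The list of loading and peptide editing in the endoplasmic reticulum held 10 genes. Of these, 8 were lower with As2O3, 7 with GSK458 and 7 with the combination. Among all tested genes 48.6%, 50.5% and 51.1% were lower in these comparisons. The list medians were -0.36, -0.17 and -0.20, against 0.01, -0.005 and -0.01 over all genes. CALR, the calreticulin that holds class I chains while they load, stood at 480.3 FPKM with As2O3, 269 with GSK458, 294 with both and 872 in the control. PDIA3, the disulphide isomerase of the same complex, stood at 242 FPKM with As2O3, 155 with GSK458, 145 with both and 323 in the control. Both were at least 2-fold lower with GSK458 and with the combination, 2 of the 10 genes against 3.87% and 4.31% of all genes.

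Among proteasome genes that feed class I peptides, 9 of 10 were lower with GSK458 and 9 of 10 with both, and 5 of 10 with As2O3, against 50.5%, 51.1% and 48.6% of all genes. None was at least 2-fold lower, against 3.87% of all genes with GSK458, 4.31% with both and 1.41% with As2O3. The medians were -0.45, -0.33 and -0.01. PSME2, a subunit of the interferon-induced proteasome activator, stood at 129 FPKM with As2O3, 82.05 with GSK458, 76.7 with both and 148 in the control. PSMB10, a catalytic subunit of the immunoproteasome, stood at 4.55 FPKM with As2O3, 5.59 with GSK458, 6.77 with both and 8.23 in the control.

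Of the factors that act on class I promoters, none of the 13 genes that passed the filter was 2-fold apart from the control on the log2(FPKM + 1) scale, which is close to the background shares given above. EZH2 passed 2-fold with GSK458 without the pseudocount. EZH2, a histone methyltransferase known to silence class I genes in some tumours, stood at 15.8 FPKM with As2O3, 7.97 with GSK458, 9.26 with both and 16.5 in the control. RFXANK, a subunit of the RFX complex on class I promoters, stood at 19.7 FPKM with As2O3, 34.2 with GSK458, 24.3 with both and 33.6 in the control. In interferon gamma signalling none of 12 genes was 2-fold apart from the control on the log2(FPKM + 1) scale, again close to the background, and medians were 0.01, 0.01 and 0.18. SOCS1 passed 2-fold with GSK458 and with both without the pseudocount. SOCS1, a feedback inhibitor, stood at 0.88, 2.09, 2.31 and 0.92 FPKM, and the kinase JAK1 at 4.57, 4.53, 5.11 and 2.79 FPKM, with As2O3, GSK458, both and in the control.

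Interferon-stimulated genes were split in direction. Of the 24 among 38 that passed the filter, 8 were higher and 16 lower with As2O3, 12 and 12 with GSK458, and 11 and 13 with both. Of all tested genes 51.2% were higher and 48.6% lower with As2O3, 49.4% and 50.5% with GSK458, and 48.8% and 51.1% with both. The split with GSK458 and with both is therefore close to the background. GBP2, a guanylate-binding protein, stood at 1.25 FPKM with As2O3, 3.85 with GSK458, 5.35 with both and 0.15 in the control. That control value of GBP2 is near the floor, below the 1 FPKM of the filter. OAS3, which senses double-stranded RNA, stood at 2.83, 1.18, 1.35 and 3.86 FPKM, and BST2, a membrane tether of viruses, at 70.9, 57.8, 40.1 and 85.4 FPKM in the same order.

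Class II genes, which serve presentation by professional antigen-presenting cells, were mostly at or near 0. Of 12 genes 8 were under 1 FPKM in every library and 5 were listed at 0, and the class II transactivator CIITA reached no more than 0.03 FPKM. The 3 measured genes were higher with As2O3 and lower with GSK458 and with both, as were 51.2%, 50.5% and 51.1% of all genes. CD74, the invariant chain, stood at 2.85 FPKM with As2O3, 0.60 with GSK458, 0.52 with both and 2.46 in the control.

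HFE, a class I-like molecule of iron control, was the gene furthest from the control among other class I molecules, at 4.32 FPKM with As2O3, 4.35 with GSK458, 3.51 with both and 10.7 in the control. It was at least 2-fold lower in all 3 treated libraries, which share that control. Among ligands of natural killer and T cells, 8 of the 11 that passed the filter were higher with As2O3, against 51.2% of all genes, and 2 of them at least 2-fold, against 2.07%. With GSK458 7 of the 11 were lower and with both 6 were, against 50.5% and 51.1% of all genes, with none at 2-fold. ULBP2, a ligand of the activating receptor NKG2D, stood at 10.7 FPKM with As2O3, 5.15 with GSK458, 4.93 with both and 3.28 in the control. ICAM1, the adhesion molecule bound by T cells, stood at 43.6 FPKM with As2O3, 24.6 with GSK458, 25.3 with both and 20.03 in the control.

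**Figure D4:**
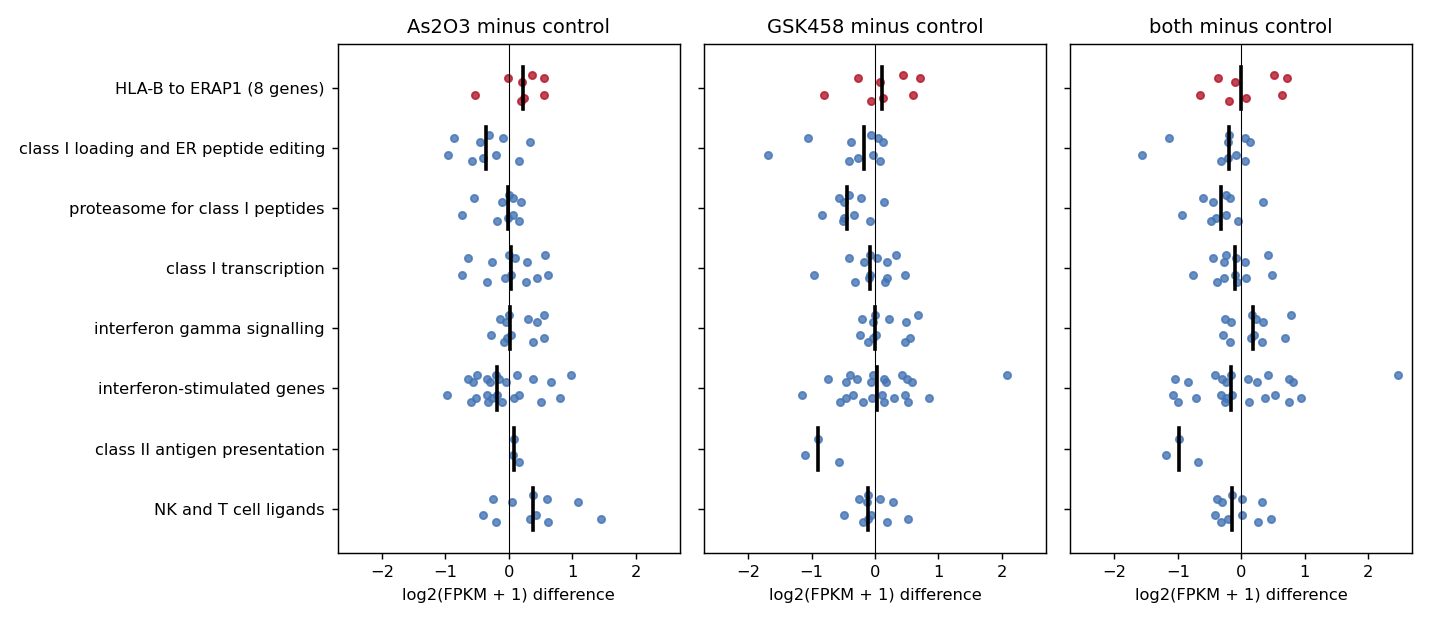
Differences from the control on the log2(FPKM + 1) scale (horizontal axis) for the 8 class I members and 7 lists (rows), 1 point per gene averaging 1 FPKM or more, with the list median as a black line. The proteasome list has medians of -0.01 with As2O3, -0.45 with GSK458 and -0.33 with both, while the members have 0.22, 0.10 and -0.01.

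Likeness was measured as the Euclidean distance over the 3 differences from the control, among 9147 other genes that averaged 5 FPKM or more. The genes most like TAP2, the member with the widest spread, were LONP1, TOB1, MKNK2, SEC13 and BCL6, at distances of 0.02, 0.05, 0.06, 0.07 and 0.13. LONP1 stood at 58.8 FPKM with As2O3, 28.2 with GSK458, 31.1 with both and 49.2 in the control. The genes nearest to the median of the members were AMZ2, OCEL1, GFER, BTBD1 and ARL1, at distances of 0.01 to 0.04. With 3 differences and so many genes, close neighbours are easily found.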

How the data were processed

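Gene expression was measured by RNA sequencing of 4 TOV21G libraries, made with a stranded poly(A) kit per the labels' protocols. The deposited table gives FPKM values that the authors made from their reads; the submitters' processing notes name Cuffdiff 2.2.1, TopHat2 2.1.1, SAMtools 0.1.18, Bowtie2 2.2.8 and the build hg19, without roles. Annotation, strand setting and handling of multi-mapped reads: not given in the sources used here.

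FPKM values entered unscaled. Genes averaging 1 FPKM or more were kept, and differences were taken on the log2 scale after adding 1 FPKM. Python 3.11.15 was used with numpy 2.4.6 and pandas 2.3.3. The code for the calls was checked on simulated data with large known changes, which does not bear on the error of these libraries. With 1 library per group no p-value was computed. Library size was compared from ratios of values under 0.5 FPKM. Promoters came from RefSeq (GRCh38.p14) and were aligned with Biopython 1.88, and transcripts came from GENCODE v29; no coordinate was carried to hg19. The members and lists were chosen with earlier results of these data known. Named list genes were up to 4 each way at least 2-fold from the control in a treated library, or else the 2 furthest from it. Alternatives were pseudocounts, filters, scalings and a 1.5-fold threshold. A few genes of these lists are not reported here.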

Additional observations from a re-analysis of the deposited data

Results flagged for a closer look

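In 3 cases a drug's difference went opposite ways without and with the other drug, and each case rests on 1 library per group, so the difference between them was not tested. For HLA-B, As2O3 gave -0.08 in the presence of GSK458 and 0.21 without it, a departure from additivity of -0.29. For TAP1, As2O3 gave -0.12 in the presence of GSK458 and 0.19 without it, a departure of -0.31. For B2M, GSK458 gave -0.29 in the presence of As2O3 and 0.08 without it, a departure of -0.37.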

How the results depend on the processing

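Differences of single members were taken under 3 scalings, no filter, a minimum mean of 5 FPKM and pseudocounts of 0.1 and 5 FPKM. Of these 336 values, 332 kept their sign, and the 4 that did not were no larger than 0.09 on the log2 scale. Many of the 332 could not have changed. The filters leave single-member values as they were, and a pseudocount cannot turn the sign of a difference between single libraries. Only the scalings, and the pseudocounts for the departure, could change a sign. The medians ranged from 0.14 to 0.23 for As2O3, from -0.01 to 0.15 for GSK458 and from -0.07 to 0.02 for both against the control, from -0.10 to 0.07 for the combination against As2O3, from -0.06 to 0.01 for the combination against GSK458, and from -0.31 to -0.16 for the departure. No member reached 2-fold under any of these settings. At a threshold of 1.5-fold, HLA-B and HLA-E were higher (2) and TAP2 lower (1) with GSK458, HLA-C and HLA-E higher (2) and TAP2 lower (1) with both, and TAP2 lower (1) in the combination against As2O3, with 8.61% and 10.3%, 9.93% and 11.7%, and 11.6% of all genes past it in those directions. Rescaling each library to a sum of 1000000 moved the median of all genes to -0.11 for GSK458 and to 0.13 for the departure, and under it TAP2 and TAPBP departed by 0.05 each and B2M with GSK458 stood at -0.04. No paired analysis was possible because each group has 1 library. The absolute depth is unknown, so no counting error was computed.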

Other observations

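TAP1 and TAP2 lie among other immune genes on chromosome 6, and their neighbours in RefSeq order were read after the values were seen. The order from TAP2 on is TAP2, PSMB8, TAP1, PSMB9, HLA-DMB, HLA-DMA and BRD2. On the other side of TAP2, the class II genes that were read all failed the filter of 1 FPKM, so that side gives no comparison. PSMB9, an immunoproteasome subunit known to share a bidirectional promoter with TAP1, stood at 16.5 FPKM with As2O3, 10.2 with GSK458, 10.0 with both and 15.6 in the control. HLA-DMB and HLA-DMA, the chains of the class II peptide editor, stood at 33.5, 20.9, 19.3 and 31.5 FPKM and at 8.27, 3.74, 3.46 and 7.81 FPKM in the same order. TAP2, TAP1, PSMB9, HLA-DMB and HLA-DMA had both libraries with GSK458 below both without it, as did 30.6% of all tested genes. PSMB8, the immunoproteasome subunit between TAP2 and TAP1, did not, at 35.8, 35.4, 40.7 and 31.8 FPKM, and neither did BRD2, a chromatin reader at the end of the row, at 46.1, 46.9, 41.2 and 46.4 FPKM.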
